A study of Mus musculus with 6 samples.

Results

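Glutathione S-transferases were followed in single-cell RNA-Seq libraries of mouse islets through 9 genes, *Gstp1*, *Gstm1*, *Gstm5*, *Gsto1*, *Gsta1*, *Gsta3*, *Gsta4*, *Mgst1*, and *Mgst3*, of the 32285 genes in the files. They were listed by symbol, and the list was selected on the difference of *Gstp1* between WT and KO β cells seen in an earlier look at these counts, so the values of these genes between WT and KO β cells are given as a description without a test. The islets were taken from 3 β14-3-3ζ–KO mice and 3 WT littermates on a C57/BL6 background by the labels (C57BL/6J in the study's methods), aged 12 to 14 weeks, with 1 library per mouse. KO mice carried the *Ins1*CreThor knock-in, which drives recombination in β cells, and *Ywhaz* alleles with LoxP sites around exon 4, and the WT mice also carried Cre. After dispersal of the islets and removal of dead cells, each captured poly(A) RNA was counted by its unique molecular identifier (UMI) with the Chromium 3′ kit.

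Glutathione S-transferases join the tripeptide glutathione to electrophiles, so that reactive or foreign compounds can be neutralized and exported, and several also reduce organic peroxides. The cytosolic enzymes are sorted by sequence into classes such as pi (*Gstp1*), mu (*Gstm1* and *Gstm5*), omega (*Gsto1*), and alpha (*Gsta1*, *Gsta3*, and *Gsta4*), whereas *Mgst1* and *Mgst3* encode small membrane-bound enzymes of an unrelated fold. Many of these genes are induced by the transcription factor NRF2 in stressed cells, and rodent β cells are known for weak antioxidant defenses compared with liver.

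*Gstp1* (ENSMUSG00000060803) is encoded on the minus strand of chromosome 19 (4035407 to 4037985, GRCm38, GENCODE vM21), next to its close copies *Gstp2* (4040285 to 4046023) and *Gstp3* (4057477 to 4059569). *Gsto1* lies on the same chromosome from 47854970 to 47864790, as does *Ins1*, the site of the Cre knock-in, from 52264297 to 52265476. The mu members lie on chromosome 3, *Gstm5* from 107895821 to 107898686 and *Gstm1* from 108012255 to 108017973. *Gsta1* (78230656 to 78242684) and *Gsta4* (78182774 to 78209349) lie on chromosome 9, *Gsta3* (21240589 to 21265661) and *Mgst3* (167371966 to 167393841) on chromosome 1, and *Mgst1* (138140316 to 138156755) on chromosome 6.

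Promoter windows, 250 bases before to 50 after the start of transcription, were matched for 8 of the 9 genes in RefSeq (GRCm38.p6) and searched on both strands for TGACNNNGC, the core of the antioxidant response element bound by NRF2, and for TGAGTCA, the element bound by AP-1 factors. The window of *Gstp1* is shown because this gene differed most between genotypes, and those of *Gsta3*, *Mgst1*, and *Gstm5* because they held the first motif. Capitals mark the matched letters, and each sequence reads 5′ to 3′ on the strand of its gene.
Gstp1, chr19:4037863-4038162, minus strand: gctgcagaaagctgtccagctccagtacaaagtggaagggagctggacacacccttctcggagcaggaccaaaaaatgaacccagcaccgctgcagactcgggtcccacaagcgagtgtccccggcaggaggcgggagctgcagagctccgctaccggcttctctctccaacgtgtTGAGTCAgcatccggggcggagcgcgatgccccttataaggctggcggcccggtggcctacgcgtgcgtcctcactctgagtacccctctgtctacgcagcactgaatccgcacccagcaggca
Gsta3, chr1:21240335-21240634, plus strand: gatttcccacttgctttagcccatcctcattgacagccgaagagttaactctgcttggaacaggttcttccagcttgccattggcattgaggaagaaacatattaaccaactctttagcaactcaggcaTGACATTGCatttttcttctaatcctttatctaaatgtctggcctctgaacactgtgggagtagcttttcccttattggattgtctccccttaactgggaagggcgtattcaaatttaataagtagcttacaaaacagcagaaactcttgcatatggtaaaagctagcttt
Mgst1, chr6:138140277-138140576, plus strand: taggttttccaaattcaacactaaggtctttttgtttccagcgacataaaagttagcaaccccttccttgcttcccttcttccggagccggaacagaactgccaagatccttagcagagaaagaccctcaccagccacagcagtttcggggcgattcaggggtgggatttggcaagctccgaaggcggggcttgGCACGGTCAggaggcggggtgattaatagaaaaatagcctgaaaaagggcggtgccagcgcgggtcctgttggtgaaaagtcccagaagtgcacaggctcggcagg
Gstm5, chr3:107895604-107895903, plus strand: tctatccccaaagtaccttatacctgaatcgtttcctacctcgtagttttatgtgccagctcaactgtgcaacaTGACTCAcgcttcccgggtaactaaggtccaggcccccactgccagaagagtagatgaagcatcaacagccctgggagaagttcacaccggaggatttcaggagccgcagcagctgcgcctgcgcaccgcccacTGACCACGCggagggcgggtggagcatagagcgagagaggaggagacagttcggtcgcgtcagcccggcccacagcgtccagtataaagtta
The window of *Gstp1* held TGAGTCA at −74 from the start site and no TGACNNNGC. With the GC that follows it, this TGAGTCA differs from TGACNNNGC only at the base after TGA. Other spellings of NRF2 sites were not searched, so a window without TGACNNNGC may still hold such a site. *Gsta3* held TGACATTGC at −121, *Mgst1* held the reverse complement GCACGGTCA at −56, and *Gstm5* held TGACCACGC at −42 and TGACTCA, the reverse complement of TGAGTCA, at −176. No match overlapped another. The windows of *Gsta1*, *Gsto1*, *Mgst3*, both windows of *Gstm1*, and a second window of *Mgst1* held neither. Of all 32851 windows in the table, 12.4% held TGACNNNGC and 5.20% held TGAGTCA, so a match is a description of these letters and not of a bound site.

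The 6 libraries held 74083947 to 98294915 UMIs in 4400 to 10722 barcodes, of which 25282 cells were kept. Among them, 79 barcodes occurred in more than 1 library. Clusters were named from marker genes as, for example, β cell–like, and in each of the 9 types described every marker on the list was higher than in the other types. The β cell–like cells, in the order of libraries 1 to 3, were 796, 910, and 944 for WT and 1195, 1002, and 1091 for KO, with library medians of 21792 to 41679 UMIs in the cells compared. Ductal-like cells were few, from 7 in KO library 2 to 49 in WT library 3. *Ywhaz*, the deleted gene, was at 125, 167, and 161 counts per 1000000 UMIs (CPM) in the WT and at 18.0, 16.6, and 18.9 CPM in the KO sums of β cell–like cells. For the other types its values are TMM-normalized CPM, as in the comparison of genotypes below, and are not on the same scale. In α cell–like cells it was at 100, 136, and 131 CPM in WT and 100, 116, and 117 CPM in KO libraries, and the genotypes also overlapped in δ cell–like, endothelial-like, stellate-like, ductal-like, and B cell–like cells. In macrophage-like and T cell–like cells every KO library was below every WT library for *Ywhaz*, as for 5.14% and 5.51% of the genes tested there. In T cell–like cells the lowest WT library was at 267.7 CPM and the highest KO library at 266.8 CPM.

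Levels across cell types are given as CPM of the summed cells of a type, as means ± SD of 6 libraries and with no test, since cells were sorted into types by the same counts. Genotypes are pooled in these means. The totals include hormone UMIs. In the β cell–like sums compared between genotypes, the 10 β cell markers, *Ins1* and *Ins2* among them, made up 447685 to 519093 CPM. In δ cell–like sums the 6 δ cell markers made up 99250 CPM. Levels of other genes are thus lowered most in β cell–like sums, and the orders of types below hold for these totals only. In β cell–like cells, *Gstm1*, a mu-class enzyme, was at 137 ± 23.9 CPM, *Gsto1*, an omega-class enzyme that reduces mixed disulfides and dehydroascorbate with glutathione, at 25.8 ± 5.57 CPM, and *Gstm5* at 23.0 ± 1.34 CPM. *Mgst3* was at 9.07 ± 1.54 CPM and *Gstp1* at 7.10 ± 2.88 CPM. The alpha-class genes and *Mgst1* were nearly absent from β cell–like cells, each at a mean between 0.114 and 0.327 CPM. The 3′ assay counts molecules without regard to transcript length, and *Gstm1* alone made up 67.2% ± 4.76 of the UMIs of the 9 genes in β cell–like cells.

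**Figure D1:**
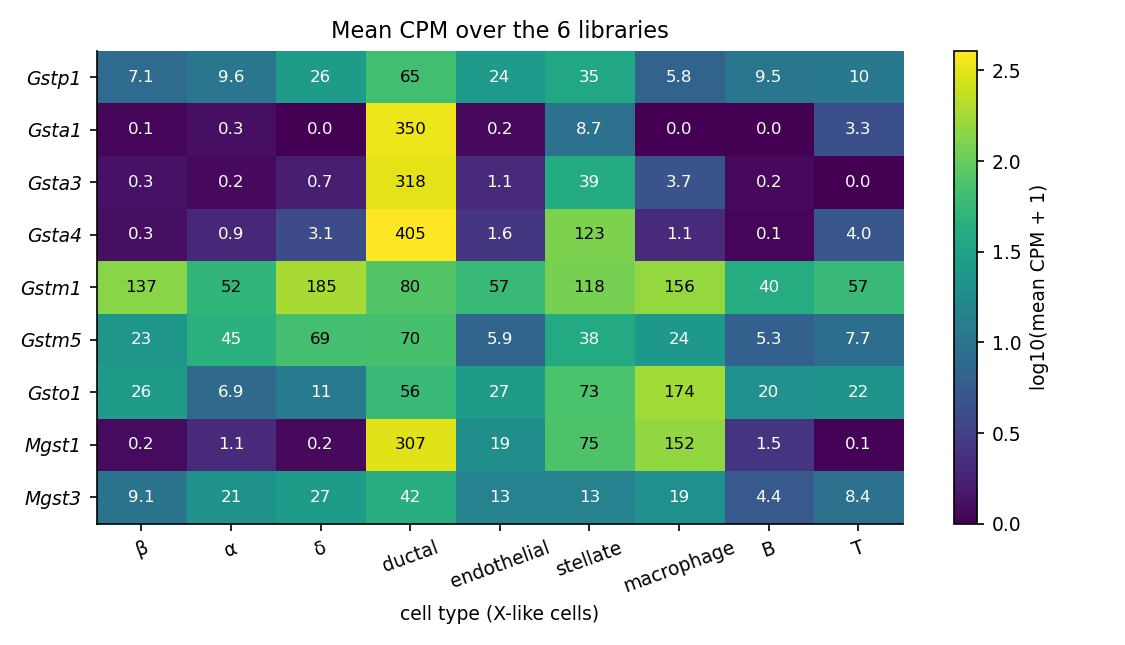
Mean CPM over the 6 libraries (number in each cell, color on a log10(CPM + 1) scale) of the 9 genes in 9 cell types. The totals include hormone UMIs, which lowers the other genes most in β cell–like cells. *Gsta1*, *Gsta3*, *Gsta4*, and *Mgst1* were at 307 to 405 CPM in ductal-like cells and at most 0.327 CPM in β cell–like cells.

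Ductal-like cells had a different makeup. *Gsta4*, whose enzyme conjugates the lipid peroxidation product 4-hydroxynonenal, was at 405 ± 283 CPM there, *Gsta1* at 350 ± 237 CPM, *Gsta3* at 318 ± 155 CPM, and *Mgst1*, a microsomal transferase and peroxidase, at 307 ± 47.6 CPM. *Gsta1*, *Gsta3*, and *Gsta4* were among the 10 genes that led the ductal-like cluster. The members were kept out of the genes used to cluster and were not among the markers used to name clusters. The ductal-like libraries of *Gsta1*, *Gsta3*, and *Mgst1* did not overlap the libraries of the next highest type, whereas those of *Gsta4* overlapped stellate-like cells. The alpha-class levels also varied between ductal-like sums, with *Gsta1* from 78.8 to 658 CPM, whereas *Mgst1* stayed between 255 and 385 CPM. *Gstp1* was also highest in ductal-like cells (65.3 ± 36.1 CPM) and decreased through stellate-like (35.1 ± 16.8 CPM), δ cell–like (26.4 ± 15.2 CPM), endothelial-like (24.2 ± 13.9 CPM), T cell–like (10.5 ± 6.29 CPM), α cell–like (9.57 ± 5.16 CPM), B cell–like (9.47 ± 7.64 CPM), β cell–like (7.10 ± 2.88 CPM), and macrophage-like cells (5.83 ± 3.67 CPM). Each of these types overlapped its neighbor in that order.

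Macrophage-like cells had the highest *Gsto1* (174 ± 29.2 CPM), with no overlap with stellate-like cells (73.0 ± 26.9 CPM), and had 152 ± 41.1 CPM of *Mgst1*. With hormone UMIs in the totals, *Gstm1* was highest in δ cell–like cells (185 ± 29.8 CPM), then macrophage-like (156 ± 24.4 CPM) and β cell–like cells. These 3 overlapped in turn. δ cell–like cells had 68.8 ± 7.89 CPM of *Gstm5* and α cell–like cells had 45.0 ± 7.10 CPM, which did not overlap. The endocrine types therefore differed among themselves, and α cell–like cells had the lowest *Gsto1* of the 9 types (6.90 ± 1.80 CPM). *Mgst3*, another membrane enzyme of this family, reached 26.8 ± 4.02 CPM in δ cell–like and 20.7 ± 1.89 CPM in α cell–like cells.

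In stellate-like cells a few cells carried the alpha-class signal. *Gsta4* was at 418, 13.5, and 1.61 CPM in the 3 WT and at 280, 3.58, and 18.4 CPM in the 3 KO libraries, so the libraries numbered 1 of both genotypes stood above the rest. In WT library 1 all 525 UMIs of *Gsta4* lay in 7 of 58 cells, and in KO library 1 all 316 lay in 4 of 69 cells. Every one of those cells belonged to the stellate-like cluster led by *Dcn* and *Col3a1*, and the other stellate-like cluster, led by *Mgp* and *Igfbp5*, had at most 4 UMIs of *Gsta4* in a library. The 14 ductal markers summed to 426 and 297 CPM in the *Dcn*-led cluster of WT and KO library 1 and to 1095 and 1371 CPM in that of WT and KO library 2, where *Gsta4* was at 18.9 and 4.15 CPM.

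The genes whose log2(CPM + 1) was most like that of *Gstp1* over 53 sums (each type in each library with at least 10 cells) were *Sec62* (Pearson r = 0.787), *Fjx1* (0.773), *Nars* (0.766), *Cldnd1* (0.765), and *Tpm1* (0.765). For *Gstm1* they were *Cd63* (0.820), *Atp6v1c1* (0.749), *Rnf150* (0.738), *Atp6ap2* (0.729), and *Hspa5* (0.726), and for *Mgst1* they were *Myof* (0.947), *Cd14* (0.944), *Creb5* (0.941), *Esd* (0.935), and *Pgd* (0.928). The sums of a library share its depth and free RNA, and 9305 genes with at least 10 CPM on average were compared.

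For the comparison of genotypes, KO β cell–like cells in which any *Ywhaz* UMI was found were dropped, so that 707, 688, and 620 KO cells remained. UMI sums per library were fitted with edgeR after TMM normalization. Values of the fits from here on are TMM-normalized CPM, in the order of libraries 1 to 3. Parts of the β cell–like cells, left-out or unnamed barcodes, and marker sums are given as CPM of the raw totals. So are levels across types and values after subtraction of β cell RNA, and they are not on the same scale. The fit held the 9310 genes detected in over 15% of WT or of KO cells, and 5 of the 9 members were among them. *Gstp1* passed this filter through the WT cells only, so its entry depended on the group in which it was higher. Of the 9310 genes, 1 was called at a false discovery rate (FDR) of 0.05 and an absolute log2 fold change above 0.1, *Ywhaz* itself (0.0107%). That call was fixed in advance, since the KO cells compared were those without a *Ywhaz* UMI, and no other gene was called.

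In β cell–like cells *Gstp1* was at 10.8, 9.12, and 9.05 CPM in WT and at 4.21, 3.37, and 5.63 CPM in KO libraries. These are 349, 236, and 310 UMIs in WT and 87, 50, and 114 UMIs in KO libraries, and every KO library was below every WT library. The log2 fold change was −1.12 (SE 0.173), or 0.461-fold, and is a description, since it is the difference for which the gene was chosen. Of all genes in the fit, 5.37% lay below every WT library in all KO libraries. *Gstm1* was at 119, 103, and 135 CPM in WT and 151, 174, and 143 CPM in KO libraries, a log2 fold change of 0.39 (SE 0.114) with every KO library above every WT library, which 5.77% of all genes showed. So *Gstp1* and *Gstm1* lay on opposite sides of 0.

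**Figure D2:**
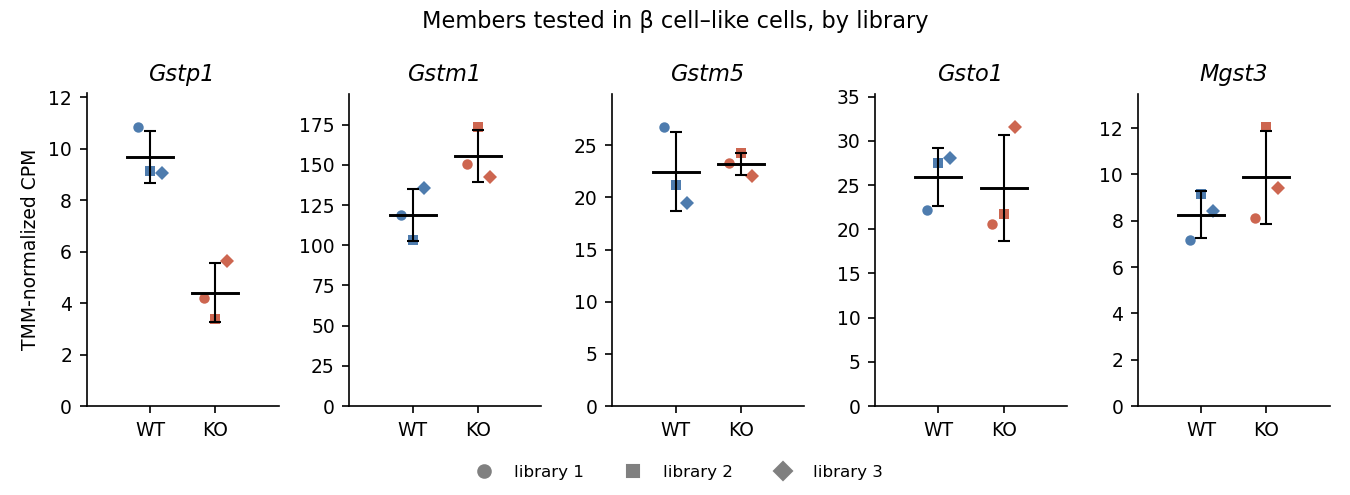
TMM-normalized CPM (linear axes from 0) of the 5 members fitted in β cell–like cells, with a point for each library and the mean ± SD over the 3 libraries of a genotype in black. *Gstp1* was at 9.05 to 10.8 CPM in WT and 3.37 to 5.63 CPM in KO libraries, and *Gstm5*, *Gsto1*, and *Mgst3* overlapped between genotypes.

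The other 3 members fitted in β cell–like cells overlapped between genotypes. *Gstm5* was at 26.7, 21.2, and 19.4 CPM in WT and 23.3, 24.2, and 22.1 CPM in KO libraries, a log2 fold change of 0.05 (SE 0.121). *Gsto1* was at 22.1, 27.5, and 28.0 CPM in WT and 20.6, 21.7, and 31.6 CPM in KO libraries (−0.07, SE 0.165). *Mgst3* was at 7.17, 9.16, and 8.44 CPM in WT and 8.13, 12.1, and 9.44 CPM in KO libraries (0.25, SE 0.156). *Gsta1*, *Gsta3*, *Gsta4*, and *Mgst1* did not enter the fit, with 15, 42, 35, and 18 UMIs in all WT and 6, 16, 11, and 12 UMIs in all KO β cell–like cells, too few for a comparison.

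*Gstp1* was lower in every KO library in both of the larger β cell–like clusters. In the largest cluster it was at 13.3, 9.84, and 10.6 CPM of the raw totals in WT and 4.83, 3.10, and 6.60 CPM in KO libraries, and in the second cluster at 7.47, 10.1, and 9.44 CPM against 3.93, 3.34, and 5.14 CPM. The cluster with the fewest genes per cell held 19, 4, and 4 UMIs of *Gstp1* in WT and 4, 0, and 0 UMIs in KO libraries, too few to compare the genotypes. *Gstm1* differed more between clusters than between genotypes, with 116 to 182 CPM in the largest cluster and 10.6 to 38.7 CPM in the gene-poor one, and its genotypes overlapped in both. In the second cluster every KO library (127 to 159 CPM) was above every WT library (51.8 to 111 CPM) for *Gstm1*.

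The dropped KO cells, in which *Ywhaz* was still detected, had 5.41, 3.63, and 5.12 CPM of *Gstp1* in libraries 1 to 3, next to 4.24, 3.17, and 5.94 CPM in those without. Insulin-rich barcodes left out for their mitochondrial UMIs had 10.7, 8.94, and 7.92 CPM in WT and 4.27, 3.33, and 4.51 CPM in KO libraries, and the unnamed cluster with transcripts of several hormones had 18.0, 16.97, and 18.3 CPM against 8.09, 5.39, and 8.68 CPM. Shallow insulin-rich barcodes overlapped, with 3.95, 10.2, and 9.80 CPM in WT and 3.49, 4.26, and 6.29 CPM in KO libraries. The summed ductal markers in β cell–like sums ranged from 656 to 792 CPM in WT and from 739 to 815 CPM in KO libraries, with *Cftr* alone of 14 at 0, against 17523 CPM in ductal-like cells.

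A *Gstp1* UMI was found in a share of β cell–like cells that was 24.0% ± 3.77 (SD, n = 3) for WT and 10.9% ± 4.04 (SD, n = 3) for KO. After every cell was thinned to 5000 UMIs and 134 WT and 59 KO cells below that depth were dropped, these shares became 5.02% ± 0.326 and 2.22% ± 0.693. None of the cell types is known to lack *Gstp1*, so the share from free RNA could not be measured. The thinned share of *Gstm1* was 41.5% ± 4.86 in WT and 49.4% ± 2.39 in KO libraries.

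The Cre line is meant to act in β cells, and the other cell types show what the members did where *Ywhaz* was not reduced to the same extent. Members were tested in the 7 other types that had 10 or more cells in each library, with edgeR's quasi-likelihood test and Benjamini-Hochberg adjustment over all genes of the type. Libraries of the same number deviated together, so the fit with the replicate number as a block is given where it changed a call. Of 33 tests of a member in a type, none was called without the block by edgeR or by DESeq2, 9 had an unadjusted p under 0.05, and 3 were called with the block, all of them *Gstp1*. Over all genes of the 7 types, 3.85% of the tests had an unadjusted p under 0.05. The 9 include *Gstp1* in α cell–like, δ cell–like, endothelial-like, stellate-like, and B cell–like cells. This gene was chosen for its difference in β cells of the same mice. The share of all genes is therefore a background and does not measure an excess among the members. The background was low: 0.0% of genes were called without the block in α cell–like, δ cell–like, endothelial-like, stellate-like, macrophage-like, and B cell–like cells, and 0.0153% in T cell–like cells. With the block, 0.0552% were called in δ cell–like, 0.0947% in endothelial-like, and 0.212% in B cell–like cells.

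In endothelial-like cells *Gstp1* was at 28.7, 39.0, and 38.9 CPM in WT and 16.3, 9.12, and 11.9 CPM in KO libraries, a log2 fold change of −1.51 (SE 0.250, edgeR adjusted p = 0.989; with the block −1.51, SE 0.243, adjusted p = 0.0309). In δ cell–like cells it was at 19.6, 43.7, and 48.3 CPM in WT and 11.6, 16.4, and 19.3 CPM in KO libraries, a log2 fold change of −1.21 (SE 0.284, edgeR adjusted p = 0.9997; with the block −1.17, SE 0.180, adjusted p = 0.000646). WT library 1 was the lowest of the WT libraries in δ cell–like cells, and without it the log2 fold change was −1.59 (SE 0.202) and was called without a block (edgeR adjusted p = 0.000187). The KO libraries did not overlap the WT libraries in either type, as for 4.16% of genes in endothelial-like and 4.26% in δ cell–like cells.

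**Figure D3:**
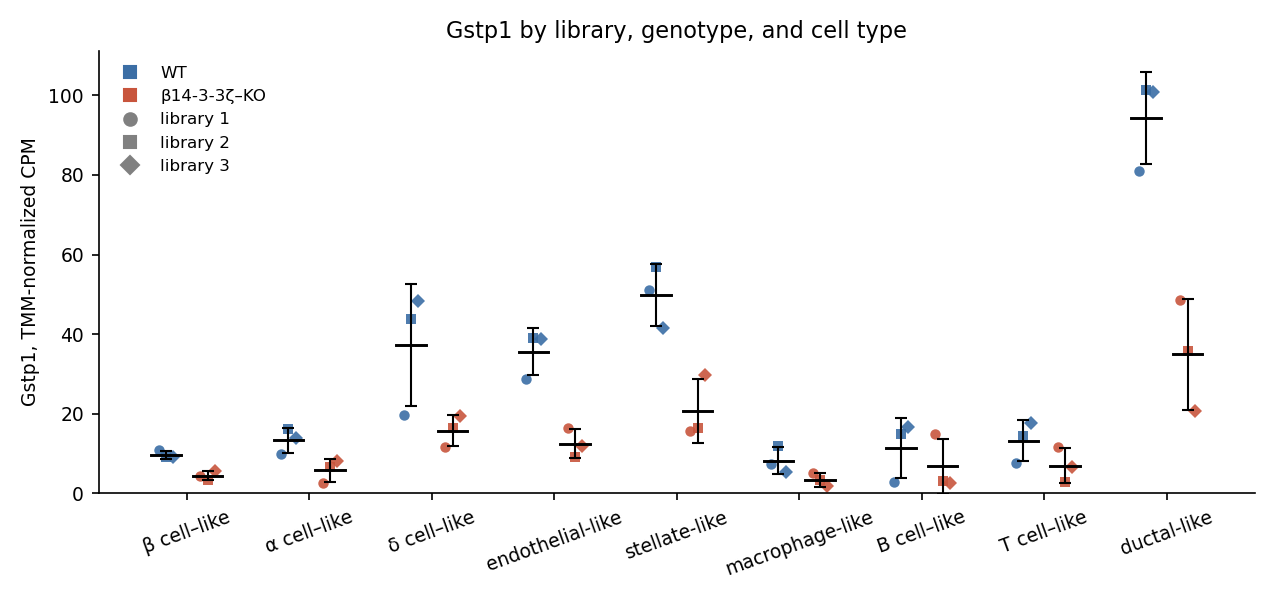
TMM-normalized CPM of *Gstp1* (linear axis from 0) in 9 cell types, with a point for each library (marker shape gives its number) and the mean ± SD over the 3 libraries of a genotype in black, cut at 0 where the bar of KO B cell–like sums passes it. The KO points lie below the WT points in 7 types and overlap them in B cell–like and T cell–like cells, with means of 9.67 and 4.40 CPM in β cell–like and 94.4 and 34.9 CPM in ductal-like cells.

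In α cell–like cells *Gstp1* was at 9.87, 16.1, and 13.8 CPM in WT and 2.55, 6.57, and 7.97 CPM in KO libraries (log2 fold change −1.15, SE 0.315, edgeR adjusted p = 0.9999; adjusted p = 0.222 with the block). In stellate-like cells it was at 51.0, 56.9, and 41.4 CPM in WT and 15.7, 16.5, and 29.8 CPM in KO libraries (−1.27, SE 0.278, edgeR adjusted p = 0.9998; adjusted p = 0.993 with the block). Neither was called, although the genotypes did not overlap in either, as for 5.15% of genes in α cell–like and 3.64% in stellate-like cells. Macrophage-like cells had too few UMIs of *Gstp1* for the filter, 8, 14, and 4 in WT and 5, 4, and 2 in KO libraries, or 7.21, 11.9, and 5.40 CPM against 5.19, 3.22, and 1.72 CPM.

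In ductal-like cells, which had only 7 cells in KO library 2, *Gstp1* was at 81.0, 101, and 101 CPM in WT and 48.4, 35.7, and 20.6 CPM in KO libraries, from 173, 39, and 238 UMIs against 98, 6, and 13 UMIs. The log2 fold change was −1.29 (SE 0.258) and is given without a test, and without KO library 1 it was −1.92 (SE 0.328). Of the genes in that fit, 5.23% lay below every WT library in all KO libraries, and none of the other 8 members did. *Gsta1* was at 377, 293, and 644 CPM in WT and 564, 119, and 76.0 CPM in KO libraries, and *Gsta4* at 375, 286, and 648 CPM against 813, 172, and 111 CPM. KO library 1 was thus within or above the WT range for these alpha-class genes, and the other 2 KO libraries were below it. The β cell RNA estimated in these sums also differed between libraries and is given below.

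The B cell–like and T cell–like sums were thin in several libraries. *Gstp1* had 3, 114, and 2 UMIs in WT and 1, 26, and 1 UMIs in KO B cell–like cells, or 2.78, 14.8, and 16.7 CPM against 14.8, 2.93, and 2.50 CPM, which overlapped. Its log2 fold change of −1.85 (SE 0.612, edgeR adjusted p = 0.9998) was called with the block (−2.22, SE 0.440, adjusted p = 0.0388), and the libraries numbered 2 held 114 of the 119 WT and 26 of the 28 KO UMIs. In T cell–like cells *Gstp1* did not pass the filter (44 UMIs in WT and 21 in KO libraries), and it was at 7.70, 14.4, and 17.6 CPM in WT and 11.6, 2.69, and 6.50 CPM in KO libraries. The genotypes thus overlapped in both lymphoid types.

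The *Ins2* level of a type relative to that of β cell–like cells of the same library was taken as an estimate of the β cell RNA in its sum, and the source of that *Ins2* was not tested. It was 1.84% to 12.5% in α cell–like, 7.16% to 12.3% in δ cell–like, 4.71% to 24.2% in endothelial-like, and 0.941% to 20.9% in stellate-like sums. With that share of the β cell–like level subtracted, *Gstp1* was left at 28.5 to 39.7 CPM in WT and 7.72 to 16.2 CPM in KO endothelial-like cells. In the same order it was left at 19.8 to 46.9 CPM and 11.3 to 19.1 CPM in δ cell–like cells. In α cell–like cells 9.23 to 16.0 CPM and 2.24 to 7.72 CPM were left, and in stellate-like cells 42.6 to 52.5 CPM and 15.2 to 31.1 CPM. In ductal-like cells 82.2 to 102.9 CPM and 20.4 to 48.7 CPM were left. Values left after subtraction, here and below, are CPM of raw totals that still contain the β cell RNA. They are therefore lower than levels without that RNA, most so where its share is highest.

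Of 7968 genes tested in α cell–like, δ cell–like, endothelial-like, and stellate-like cells alike, 2 were below every WT library in all KO libraries in each of these 4 types (0.0251%), *Gstp1* and *Gm10076*, and none was above. *Gm10076*, annotated as a long intergenic RNA on chromosome 14 (105681828 to 105682211), is named because its values were seen, and its log2 fold changes were between −1.39 and −0.98 in the 4 types. The sums come from the same 6 mice, so the types are not independent of each other. Genotype cannot be told apart from any other difference between these 2 groups of 3 mice.

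The other members outside β cell–like cells were mostly within the spread of the libraries. *Gstm1* had an unadjusted p under 0.05 in 3 types. In T cell–like cells it was at 15.4, 41.7, and 52.8 CPM in WT and 81.2, 76.6, and 78.0 CPM in KO libraries, a log2 fold change of 1.25 (SE 0.327, edgeR adjusted p = 0.214), and without WT library 2 it was 2.03 (SE 0.451) and called (edgeR adjusted p = 0.01003). These T cell–like sums held 3.13% to 24.2% of β cell–like *Ins2* in WT and 22.9% to 38.0% in KO libraries, and with that share subtracted *Gstm1* was left at 12.5, 16.6, and 40.0 CPM in WT and 35.4, 5.70, and 39.2 CPM in KO libraries, which overlapped. In B cell–like cells *Gstm1* was at 24.1, 32.7, and 33.5 CPM in WT and 44.4, 69.7, and 40.1 CPM in KO libraries (0.97, SE 0.311, edgeR adjusted p = 0.9998), and after the same subtraction at 20.4, 11.4, and 7.72 CPM against 29.2, 3.77, and 4.15 CPM.

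In endothelial-like cells *Gstm1* was at 44.3, 44.9, and 59.3 CPM in WT and 52.5, 78.4, and 66.3 CPM in KO libraries (log2 fold change 0.42, SE 0.185, edgeR adjusted p = 0.989). In macrophage-like cells *Gstm5* was at 14.4, 24.6, and 13.5 CPM in WT and 33.2, 33.0, and 24.1 CPM in KO libraries (0.74, SE 0.285, edgeR adjusted p = 0.955). Both overlapped between genotypes and neither was called. *Mgst1*, which was tested in endothelial-like, stellate-like, and macrophage-like cells, had log2 fold changes of 0.26 (SE 0.348), 0.05 (SE 0.556), and 0.01 (SE 0.240), and *Gsto1* lay between 0.07 (SE 0.175) in macrophage-like and 0.47 (SE 0.292) in stellate-like cells, with overlap in all 7 types.

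**Figure D4:**
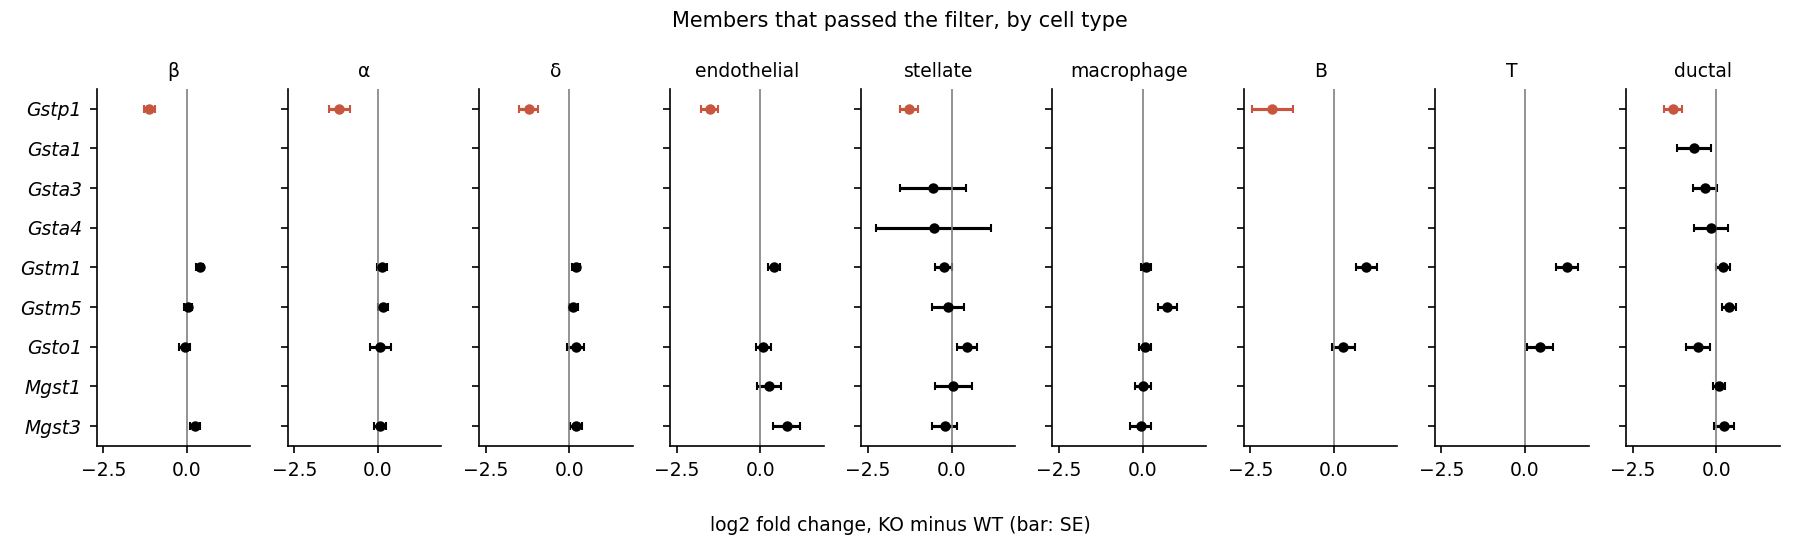
Log2 fold change (KO minus WT) with its SE for each member that passed the filter in 9 cell types, with *Gstp1* in red. *Gstp1* lies between −1.85 and −1.12 in the 7 types in which it was fitted, and the other members lie between −0.66 (*Gsta1* in ductal-like cells) and 1.25 (*Gstm1* in T cell–like cells), with the widest error for *Gsta4* in stellate-like cells (SE 1.73).

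The genes around the members in the glutathione pathway were followed in β cell–like cells with 5 lists of 89 genes, of which 61 entered the fit and none was called in either direction. Their median log2 fold change was 0.02, next to 0.00227 over all 9310 genes, and 3 had an unadjusted edgeR p under 0.05, a share close to that of all genes in the fit (4.99%). The 3 are named by the rule of lowest p and not as changes, and all were in the list for the supply of glutathione and cysteine. They were *Chac1*, which degrades glutathione, at 53.0, 43.6, and 38.8 CPM in WT and 37.9, 34.5, and 36.8 CPM in KO libraries (log2 fold change −0.31, SE 0.113, adjusted p = 0.881), *Gclc*, the catalytic subunit of the enzyme that starts glutathione synthesis (−0.24, SE 0.0950, adjusted p = 0.881), and *Slc7a11*, the cystine transporter (−0.44, SE 0.188, adjusted p = 0.881). In that list 14 of 18 genes were tested, 11 of them below 0 with a median of −0.05.

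Of 19 other glutathione S-transferase genes, 6 were tested, 3 above and 3 below 0, and none had an unadjusted p under 0.05. In the list of peroxide and thiol reductases 21 of 25 genes were tested, with 16 above 0 and a median of 0.09, and the lowest p values belonged to *Txnrd2*, the mitochondrial thioredoxin reductase (0.32, SE 0.143), and *Gpx3*, a secreted glutathione peroxidase (0.33, SE 0.150). Of the NRF2 axis 14 of 18 were tested, and *Keap1*, which targets NRF2 for degradation, was at 48.2, 45.8, and 48.0 CPM in WT and 51.5, 51.1, and 54.9 CPM in KO libraries, each KO library above each WT library by a log2 fold change of 0.15 (SE 0.0674). The small Maf genes *Mafk* (−0.30, SE 0.135) and *Maff* (−0.34, SE 0.187), whose proteins pair with NRF2, and *Sqstm1*, an autophagy adaptor that binds KEAP1 (−0.33, SE 0.166), overlapped between genotypes. Of the genes for conjugate export and the glyoxalase route 6 of 9 were tested, with *Hagh*, a glyoxalase, at 0.19 (SE 0.107).

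Reads of near-identical copies can be split or lost in counting, so *Gstp1* and *Gsta1* values are uncertain to that extent. In β cell–like cells *Gstp2* had 10 UMIs in WT and 5 in KO libraries, and *Gstp3* had 26 and 9, next to 895 and 251 for *Gstp1*. *Gstp3* was at 38.7 ± 3.39 CPM in T cell–like cells and at most 2.15 CPM on average in the other 8 types. Within 1000000 bases of *Gstp1*, 34 other genes entered the β cell–like fit, none was called, and their log2 fold changes ran from −0.34 (*Rbm14*) to 0.25 (*Tmem134*), with 1 below and 3 above every WT library in all KO libraries.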

How the data were processed

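Islets were profiled with the 10x Chromium 3′ kit, 1 library per mouse (3 WT, 3 KO). The submitters' processing notes name Cell Ranger 6.0.2, Seurat, and the build mm10. The values deposited by the authors are raw counts of UMIs per gene and barcode. Genotype and replicate numbers came from the sample titles.

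Barcodes with fewer than 500 genes or more than 10% mitochondrial UMIs were removed, as were the barcodes with the highest Scrublet doublet scores, at a rate set by the number of barcodes in the library. Cells were clustered with scanpy 1.11.5 (2000 variable genes, 30 components, Leiden resolution 1) into 27 clusters, and clusters were named from at least 3 markers. Unnamed clusters (9945 cells) entered no comparison. UMIs were summed per library and type and fitted with edgeR 4.0.16 (TMM, quasi-likelihood, Benjamini-Hochberg, FDR 0.05, absolute log2 fold change above 0.1). In β cell–like cells the fit held genes detected in over 15% of cells of either genotype. In the other types, ductal-like cells included, genes were filtered on low counts with edgeR's filterByExpr. The members and gene lists, as well as the named genes (all 9 members, 10 pathway genes by p, and 5 most alike genes), were chosen with earlier results of these data known. An exact test on summed members in ductal-like cells, planned at first, was not run because the members had been chosen on these results. On simulated β cell–like sums of 9310 genes, 99 of 100 genes changed 2-fold and 78 of 100 changed 1.5-fold were called, with 7 false calls. The simulation gave every gene the same variation between libraries and no deviation shared by libraries of the same number. Its rates are therefore a check of the code and not the power in these libraries. Same-numbered WT and KO libraries deviated together in β cell–like sums (correlations 0.551, 0.501, and 0.227), which is a property of the data and not of the labels, so fits with the replicate number as a block are also given. No pair of libraries of the same genotype agreed within sampling noise (chi-square per degree of freedom 6.20 to 83.1). Median UMIs per kept cell ranged from 3311 to 25523 among libraries. Coordinates came from GENCODE vM21, which held 32235 of 32285 gene identifiers.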

Additional observations from a re-analysis of the deposited data

How the results depend on the processing

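In β cell–like cells 1 gene was called in the main fit and in each fit that left out 1 library (1 to 1), whereas DESeq2 called 7, the fit without a filter on low counts 12, and the fit with the replicate block 10. The pairing moved the *Gstp1* difference little, to −1.12 (SE 0.149) with the block, and it lay between −1.34 and −0.98 in 17 settings, which include 2 chosen after seeing the data (the gene-poor cluster left out, and the largest β cell–like cluster alone). Of the members in the other types, 0 were called in the main fits, 3 without a filter, 3 with the replicate block, and 0 to 1 with a library left out. In ductal-like cells *Gstp1* ranged from −1.92 to −1.02 with a library left out, an alternative added after seeing the data, and no ductal-like cluster was named without doublet calls. With hormone UMIs taken out of the totals, *Gstp1* was at 13.4 CPM in β cell–like cells, and thinned to 2000 UMIs its shares were 1.88% in WT and 0.802% in KO libraries. Signs turned without doublet calls for *Gsto1* in δ cell–like (−0.043), *Mgst1* in endothelial-like (−0.31), and *Mgst1* in stellate-like cells (−0.14), none of them called, and the cause was not tested.

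Leaving out a library also turned signs of differences that were not called or not tested. These ranged from −0.051 to 0.19 for *Gstm5* and −0.29 to 0.049 for *Gsto1* in β cell–like cells, and from −1.73 to 0.27 for *Gsta4*, −0.17 to 0.30 for *Gstm1*, −0.11 to 0.23 for *Mgst1*, and −0.10 to 0.74 for *Mgst3* in ductal-like cells. They ranged from −0.047 to 0.27 for *Gstm1*, −0.12 to 0.26 for *Gsto1*, and −0.063 to 0.11 for *Mgst3* in α cell–like cells, and from −0.20 to 0.21 for *Gsto1* in endothelial-like cells. In stellate-like cells they ranged from −1.18 to 1.397 for *Gsta3*, −3.77 to 3.37 for *Gsta4*, −0.61 to 0.43 for *Gstm5*, −0.28 to 0.77 for *Mgst1*, and −0.43 to 0.075 for *Mgst3*. In macrophage-like cells they ranged from −0.070 to 0.24 for *Gstm1*, −0.069 to 0.26 for *Gsto1*, −0.26 to 0.28 for *Mgst1*, and −0.22 to 0.21 for *Mgst3*, and in B cell–like cells from −0.043 to 0.40 for *Gsto1*. Depth limits the alpha-class genes and *Mgst1* in β cell–like cells.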
